A study of Mus musculus with 12 samples.

Results

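LSK cells labelled Yy1-/- were compared with LSK cells labelled Yy1+/+, using the 8 libraries of these genotypes among the 12 libraries of the series. Members were chosen by the genotype in the labels, which gave 4 Yy1-/- libraries and 4 Yy1+/+ libraries, and the description covers 16649 tested genes of the 55487 genes listed. LSK cells are the lineage-negative, Sca1-positive and c-Kit-positive fraction of mouse bone marrow, which holds haematopoietic stem cells and multipotent progenitors. All 8 libraries came from sorted marrow cells of this one gate. The third genotype of the series, Yy1-/- Smc3+/-, also with 4 libraries, was not compared here. It entered the gene filter, the scaling and the estimate of the spread. The wild type for the comparison is Yy1+/+, as the study's design states. The labels name no deleter or promoter for the Yy1 deletion, no treatment, strain, age or sex, and no number of animals per library, so the p-values below measure the spread between libraries, which may be partly technical. RNA of few cells was copied to full-length cDNA by PCR before sequencing, and in bulk RNA of this kind fewer cells of a type and less RNA per cell cannot be told apart.

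YY1 is a zinc finger protein that binds DNA at the letters AAGATGGCG and shorter forms of them. It can activate or repress a gene, it binds the INO80 chromatin remodelling complex, it has been tied to Polycomb proteins, and it can bring enhancers and promoters together. In blood it is known for supporting stem cell quiescence and self-renewal, in part through signalling by the receptor Kit. A library held between 17214 and 20005 genes with at least 1 count and summed expected counts between 40937638 and 69086104. Median correlations of log levels across genes were 0.953 between pairs of Yy1+/+ libraries, 0.927 between pairs of Yy1-/- libraries and 0.877 between a library of each genotype. The first principal component of these 8 libraries (50.8% of the variance) placed Yy1+/+ tightly, from -92.6 to -85.0. The Yy1-/- libraries were spread out, at 150.1, 107.3, 49.3 and 53.8 in replicates 1 to 4. The second component (14.1% of the variance) set Yy1+/+ replicate 2, at 66.4, off from its group. The order of the Yy1-/- libraries on the first component returns in several gene groups below, and each of those groups is given library by library.

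Levels are given as CPM, read counts scaled to a common library size after TMM normalisation, replicate by replicate in the order 1 to 4. Yy1 itself (ENSMUSG00000021264.12, chromosome 12:108792973-108820148, GRCm38) had 33.9, 41.3, 34.2 and 34.0 CPM in Yy1+/+ and 0.407, 0.996, 5.01 and 12.2 CPM in Yy1-/-. All Yy1-/- libraries were below all Yy1+/+ libraries, and replicates 3 and 4 kept more Yy1 reads than replicates 1 and 2 (-2.96 ± 0.67 as log2 fold change and its standard error; edgeR adjusted p = 0.00453 from its quasi-likelihood test, by the Benjamini-Hochberg method). Without Yy1-/- replicates 3 and 4 Yy1 changed by -5.65 on the log2 scale (adjusted p = 0.000182). Gene tables cannot show which exons the remaining reads came from. Yy2, an intronless relative of Yy1 on the X chromosome with the same DNA-binding domain, rose from 1.99, 2.05, 1.83 and 2.89 to 5.72, 12.0, 7.72 and 10.9 CPM (2.07 ± 0.37, adjusted p = 0.00099). In all 8 libraries some of the reads given to Yy2 were shared with other genes, so its level is uncertain.

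The surface genes of the LSK gate did not move together. Kit, the receptor for stem cell factor and 1 of the proteins of the gate, had 809, 422, 981 and 864 CPM in Yy1+/+ and 100, 229, 135 and 242 CPM in Yy1-/- (log2 fold change -2.12 ± 0.33, edgeR adjusted p = 0.000455). Ly6a, which encodes Sca1, had 196, 173, 151 and 226 CPM against 380, 226, 220 and 180 CPM and did not pass the test (0.43 ± 0.26, adjusted p = 0.215). Cd34, a sialomucin of stem and progenitor cells, had 892 to 1039 CPM against 942 to 1158 CPM, with a log2 fold change of 0.05 ± 0.11 (adjusted p = 0.772). Among the markers that divide LSK cells further, Slamf1 (CD150) fell from 14.4 to 24.9 CPM to 2.52 to 5.43 CPM (-2.27 ± 0.3, adjusted p = 0.000123). Procr (EPCR) fell from 56.9 to 69.9 CPM to 12.1 to 17.6 CPM (-2.09 ± 0.23, adjusted p = 4.52e-05). Cd48, which marks progenitors that have left the stem cell state, rose from 59.7 to 88.7 CPM to 206 to 335 CPM (1.75 ± 0.17, adjusted p = 2.05e-05). Flt3, the receptor of lymphoid-primed progenitors, fell by less (-0.59 ± 0.17, adjusted p = 0.0172), with overlapping libraries, and its call was lost when Yy1+/+ replicate 4 was left out (adjusted p = 0.05), or Yy1-/- replicates 1 and 2 were (adjusted p = 0.1). The 2 stem cell markers and Kit were therefore lower in all 4 Yy1-/- libraries and Cd48 higher in all 4, with no overlap.

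**Figure D1:**
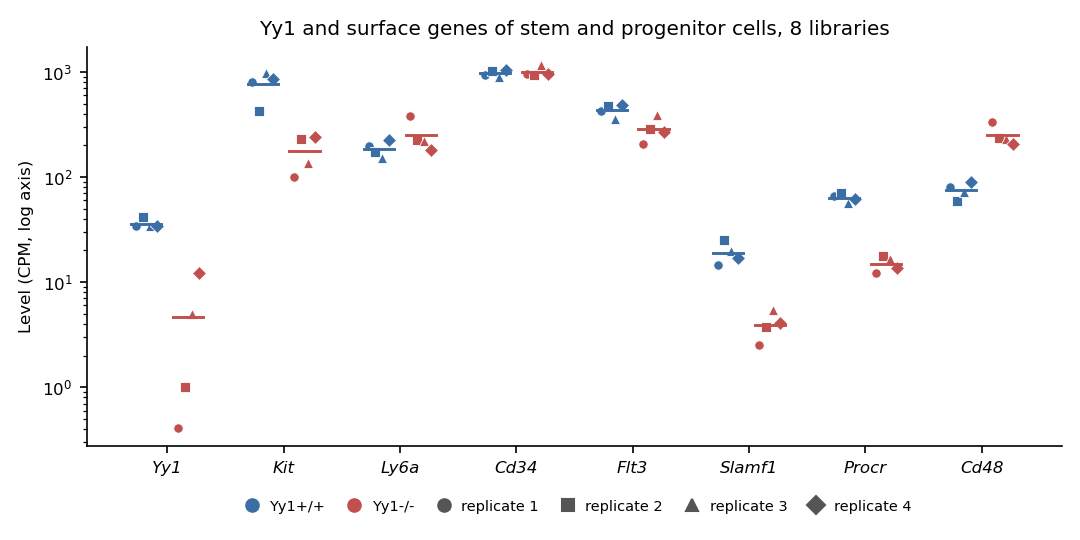
Levels of Yy1 and of 7 surface genes in the 4 Yy1+/+ (blue) and 4 Yy1-/- (red) libraries, in CPM on a log axis; symbols stand for replicates and horizontal lines for group means. Yy1, Kit, Slamf1 and Procr were lower in every Yy1-/- library, Cd48 was higher, and the groups overlapped for Ly6a, Cd34 and Flt3.

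Of the 13 tested genes for lineage antigens, which an LSK sort is meant to exclude, 4 rose and 1 fell. Itgam (CD11b), an integrin chain of myeloid cells, had 34.0 to 59.8 CPM in Yy1+/+ and 305, 212, 60.7 and 76.6 CPM in Yy1-/- (log2 fold change 1.97 ± 0.44, edgeR adjusted p = 0.00393; 0.68 and adjusted p = 0.0942 without Yy1-/- replicates 1 and 2). Cd3e, a chain of the T cell receptor complex, had at most 0.284 CPM in Yy1+/+ and 3.0, 0.678, 6.64 and 8.79 CPM in Yy1-/- (5.22 ± 1.06, adjusted p = 0.00142). Il7r, the receptor of lymphoid progenitors, rose from 1.03 to 2.27 CPM to 6.08 to 21.6 CPM (3.01 ± 0.49, adjusted p = 0.000545). The part that cells of other types could have in the differences below was not tested.

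Of all tested genes 35.2% passed the test, 16.3% higher and 18.8% lower in Yy1-/-, and in 30.9% the 4 libraries of one genotype all lay above the 4 of the other. These shares are the background for the counts of each gene group. Fits without 2 of the Yy1-/- libraries called fewer genes in all, so list counts from them have a lower background. Without Yy1-/- replicates 1 and 2, 1731 of 17787 tested genes rose and 2314 fell. Without replicates 3 and 4, 2254 of 17875 rose and 2634 fell. The falls were larger than the rises. Of the 3132 genes that fell, 2077 changed by a log2 fold change of at least 1 and 590 by at least 3, with a median size of 1.43. Of the 2722 genes that rose, 1322 changed by at least 1 and 392 by at least 3, with a median size of 0.97. The share of genes that rose was larger among abundant genes than among those of low level. Among the 2593 genes whose mean level reached 100 CPM, 28.7% rose and 14.4% fell, while among 3710 genes between 1 and 10 CPM, 13.7% rose and 24.4% fell. On the scale of log2 TPM, which corrects for transcript length and pools all RNA of a library to the same sum, the median of all genes lay at -0.211, and 25.4% of the calls were rises, against 46.5% with the TMM-scaled counts.

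The calls were not spread evenly over kinds of genes and chromosomes. Of 514 tested X-linked genes 29.4% fell and 12.6% rose. Each autosome had between 12.6% and 22.0% of its genes lower. Chromosome 13 had the highest share of rises, 21.4% of 683 genes, and the lowest share of falls. Reads of Y-linked genes differed between the libraries, whose sex is not labelled: Eif2s3y, a gene of the Y chromosome, reached 43.4 and 32.4 CPM in replicates 1 and 4 of Yy1+/+, reached 23.1 CPM in Yy1-/- replicate 3, and was at 0 in the other 5 libraries, while Xist had at least 31.2 CPM in all 8. Its part in the X-linked result was not tested. Of 82 tested RNAs transcribed from a promoter shared with a neighbouring gene in the other direction, 22.0% rose and 3.66% fell, against 17.6% and 21.7% of 13399 protein-coding genes.

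**Figure D2:**
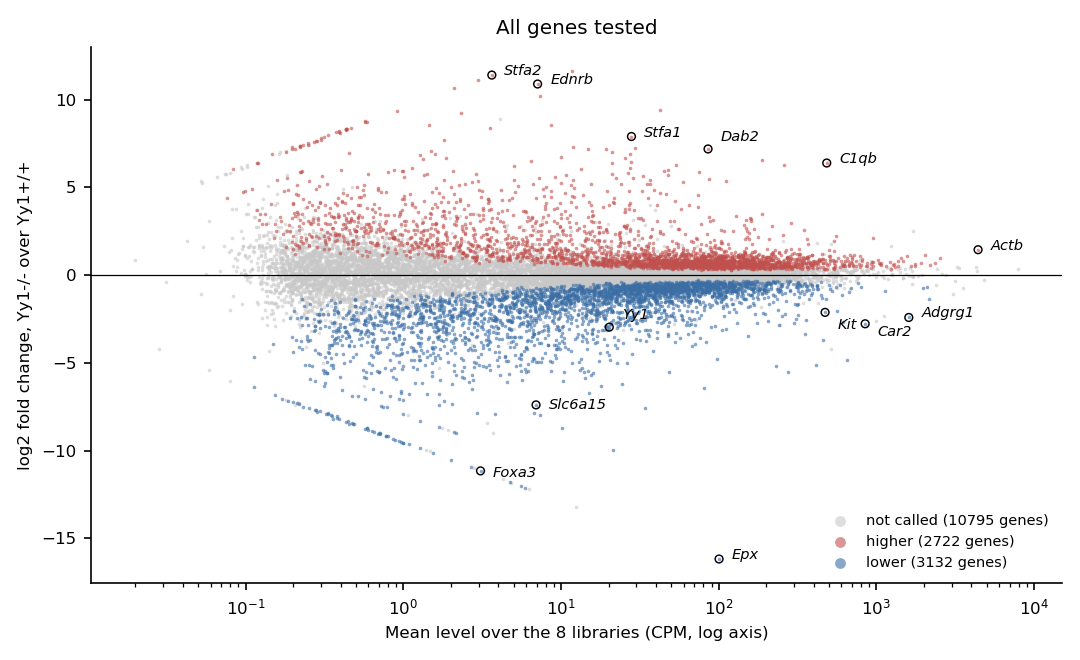
Mean level over the 8 libraries in CPM (log axis) against the log2 fold change of Yy1-/- over Yy1+/+ for the 16649 tested genes, coloured by call at adjusted p under 0.05, with 13 genes named. The 2722 rises and 3132 falls cover the whole range of levels; the straight lines of points at the left edge are genes with 0 counts in a whole genotype, whose fitted fold change is not a measured size.

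Promoters were searched for the letters of the YY1 motif, and the sites in the genes with the clearest changes are printed. RefSeq promoters of GRCm38.p6, from 250 bases before to 50 bases after a transcript start, were matched by symbol to 11199 of the tested genes, taking the start farthest upstream where a gene has several. The longer motif, AAGATGGCG on either strand, stood in 2.71% of 1954 promoters of genes that rose, 3.83% of 2348 that fell, 2.83% of 6897 not called and 1.4% of all 32851 promoters in the table. Of the 338 genes with it, 15.7% rose and 26.6% fell, against 17.5% and 20.8% of the 10861 genes without it. The shorter form AANATGGC, which the longer one contains, stood in 9.16% of both groups and in 8.19% of the genes not called. These shares are a description without a test, and a match is not a binding site.

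The sites below belong to the 3 rises and 3 falls with the smallest p among genes with the longer motif. Each line gives the gene's strand from 5′ to 3′, with the motif in capitals and up to 10 bases on each side, cut short where the promoter window ends. All 6 lie just after the transcript start.
Dohh: cgtggccatcAAGATGGCGgcgtccagag
Gpatch3: gtgacaggccAAGATGGCGtcgcccaggg
Rpl35a: ttcctctttcCGCCATCTTggcgc
Fam184a: gtctgccgggAAGATGGCGaccccgggca
Rundc1: cgtttccgggAAGATGGCGacggtggaag
Mb21d2: gttttgcatgAAGATGGCGgct
In Rpl35a the motif lies on the other strand, so that its reverse complement is shown.

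The 3 genes that rose were Dohh (site at chr10:81384438-81384466), Gpatch3 (chr4:133574747-133574775) and Rpl35a (chr16:33056479-33056502). Dohh makes the hypusine residue of the translation factor eIF5A and rose from a mean of 80.7 to 210 CPM (log2 fold change 1.38, edgeR adjusted p = 2.1e-05), Gpatch3 from 17.0 to 47.4 CPM (1.48, adjusted p = 3.1e-05), and the ribosomal protein gene Rpl35a from 136 to 309 CPM (1.18, adjusted p = 0.00012). The 3 that fell were Fam184a (chr10:53750865-53750893), Rundc1 (chr11:101425091-101425119) and Mb21d2 (chr16:28929649-28929670). Fam184a fell from a mean of 6.93 to 0.166 CPM (-5.42, adjusted p = 1.14e-05) with a log2 fold change of -8.65 without Yy1-/- replicate 4, Rundc1 from 48.7 to 14 CPM (-1.8, adjusted p = 3.81e-05), and Mb21d2 from 4.09 to 0.101 CPM (-5.13, adjusted p = 3.87e-05) with a log2 fold change of -8.56 without Yy1-/- replicate 2. The falls of this set were larger in size than the rises.

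Over the 352 matches of the longer motif in tested genes off chromosome 18, 59.1% began after the transcript start, 50.9% of those in genes that rose and 63.5% of those in genes that fell. The motif was on the gene's own strand in 73.3% of all matches. Among other motifs, both strands read, CCGGAAGT of ETS factors stood in 9.98% of the promoters of genes that rose and 4.13% of those that fell, GCGCATGC of NRF1 in 6.81% and 3.83%, GAGGAAGT of PU.1 in 4.81% and 2.21%, TTTGAA, the core of the cell cycle element CHR, in 15.9% and 9.84%, and TTTCCCGC of E2F in 2.41% and 1.58%. The shares over all tested genes were 7.94%, 5.2%, 3.29%, 12.5% and 2.08%. AGATAA of GATA factors stood in 7.52% and 7.41%, the CCAAT box ATTGG in 40.4% and 37.0%, and TGANTCA of AP-1 in 5.83% and 4.47%. The PU.1 and ETS letters share the run GGAAGT, so these matches can overlap.

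Stefin genes of neutrophils were among the largest rises. Stefin A proteins inhibit cysteine proteases, and their genes lie next to each other on chromosome 16 between positions 36156811 and 36455392 (GRCm38). Stfa2 had 0 counts in all Yy1+/+ libraries and 8.08, 17.7, 0.629 and 2.67 CPM in Yy1-/-, at least 529-fold higher against 3 counts over the Yy1+/+ group. Stfa3 was at least 444-fold higher, with 4.27, 17.6, 0.539 and 1.34 CPM. Stfa1 had at most 0.695 CPM in Yy1+/+ and 62.2, 140, 8.08 and 12.6 CPM in Yy1-/- (log2 fold change 7.9 ± 1.04, edgeR adjusted p = 9.63e-05), BC100530 had at most 0.376 CPM and 101, 213, 8.06 and 17.5 CPM (9.43 ± 1.17, adjusted p = 3.33e-05), and Stfa2l1 had 8.36, 17.7, 1.01 and 1.43 CPM (8.36 ± 1.68, adjusted p = 0.00248). All 5 genes were highest in Yy1-/- replicate 2 and next highest in replicate 1. They are close copies of each other, although no library held a fractional count for Stfa1, Stfa2, Stfa3, Stfa2l1 or BC100530.

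Other large rises were genes of phagocytes and of vessel tone. Ednrb, an endothelin receptor, had 1 count in all Yy1+/+ libraries together and 13.3, 32.1, 6.89 and 4.47 CPM in Yy1-/-, a ratio of 3100 with a 95% counting interval from 556 to 122000. Dab2, an endocytic adaptor of macrophages, had at most 2.72 CPM in Yy1+/+ and 256, 407, 6.06 and 11.3 CPM in Yy1-/- (log2 fold change 7.19 ± 1.52, edgeR adjusted p = 0.00301). C3ar1, the receptor for complement C3a, had at most 0.77 CPM and 143, 68.2, 1.91 and 5.37 CPM (6.91 ± 1.39, adjusted p = 0.00214). Fpr1, which senses bacterial formyl peptides, had 67.5, 19.5, 0.988 and 6.73 CPM against at most 0.488 (7.32 ± 1.31, adjusted p = 0.000601). Ms4a4a and Cp, the latter for ceruloplasmin, showed the same order, with 98.5 and 50.7 CPM in replicate 1 of Yy1-/- but only 0.763 and 0.943 CPM in replicate 3. In each of these genes the levels were highest in Yy1-/- replicates 1 and 2. Without these 2 libraries Dab2 (2.86, adjusted p = 0.0974), C3ar1 (2.96, adjusted p = 0.0667), Ms4a4a (2.35, adjusted p = 0.211) and Cp (2.92, adjusted p = 0.15) did not pass the test, whereas Fpr1 (4.66, adjusted p = 0.0123), Stfa1, BC100530 and Ednrb did.

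The largest falls included eosinophil granule genes. Epx, eosinophil peroxidase (chromosome 11:87864000-87875536), had 146, 589, 48.3 and 19.5 CPM in Yy1+/+ and 0 counts in all 4 Yy1-/- libraries, at least 13600-fold lower. Ear6 and Ear1, ribonucleases of the eosinophil granule, were at least 784-fold and 733-fold lower. Prg3 fell from 3.4 to 56.0 CPM to at most 0.143 CPM (log2 fold change -8.73 ± 1.29, edgeR adjusted p = 0.000108), and Prg2, major basic protein, from 374, 1270, 87.7 and 64.1 CPM to 4.04, 28.6, 10.5 and 6.26 CPM (-5.17 ± 0.93, adjusted p = 0.00109). Of 11 tested eosinophil genes these 5 fell. Their wild-type levels differed widely between the libraries, with the highest value always in Yy1+/+ replicate 2. Prss34, a protease of basophils, fell likewise from 9.02 to 145 CPM to at most 0.988 CPM (-7.54 ± 1.2, adjusted p = 0.000435).

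The other large falls started from nearly equal wild-type levels. Foxa3, a forkhead transcription factor, had 5.05, 6.98, 6.4 and 6.27 CPM in Yy1+/+ and 0 counts in Yy1-/-, at least 364-fold lower. Slc6a15, a transporter of neutral amino acids, had 12.7, 14.1, 14.5 and 14 CPM and then 0, 0, 0.135 and 0.191 CPM, the smallest p of these genes (log2 fold change -7.39 ± 0.5, edgeR adjusted p = 8.82e-09). Ccdc60 fell from 5.45 to 6.44 CPM to at most 0.0898 CPM (-7.85 ± 0.81, adjusted p = 7.95e-06). Vnn1, a pantetheinase, fell from 9.05 to 21.8 CPM to at most 0.157 CPM (-7.83 ± 0.69, adjusted p = 6.44e-07). In these 4 genes Yy1-/- replicates 3 and 4, which kept the most Yy1 reads, had at most 0.191 CPM.

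Several abundant genes had large rises in CPM. Actb, cytoplasmic actin, rose from 2703, 1989, 2709 and 2076 to 6941, 5733, 7530 and 5626 CPM (log2 fold change 1.45 ± 0.24, edgeR adjusted p = 0.000631). H2afz, a histone H2A variant, rose from 1020 to 1680 CPM to 2248 to 3256 CPM (1.16 ± 0.17, adjusted p = 0.000313), and Hmgb2, a chromatin protein of dividing cells, from 805 to 1143 CPM to 1825 to 2451 CPM (1.08 ± 0.15, adjusted p = 0.000196). Gapdh, an enzyme of glycolysis, rose from 1636 to 1769 CPM to 2824 to 3837 CPM (0.99 ± 0.14, adjusted p = 0.000252). H2afz, Hmgb2 and Gapdh had reads shared with other genes in all 8 libraries, so their levels are uncertain. Ctsb, a lysosomal protease with such shared reads as well, had 3004, 2381, 347 and 428 CPM in Yy1-/- against 286 to 464 in Yy1+/+, and its call was lost without Yy1-/- replicate 1 (1.54, adjusted p = 0.0606) and when both replicates 1 and 2 were left out (0.1, adjusted p = 0.865).

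The largest fall in CPM was that of Adgrg1, the adhesion receptor GPR56 of stem cells, from 2606, 2426, 2848 and 2928 to 277, 610, 472 and 674 CPM (log2 fold change -2.41 ± 0.26, edgeR adjusted p = 3.33e-05). Car2, carbonic anhydrase 2, fell from 1169 to 1756 CPM to 103, 132, 406 and 225 CPM (-2.77 ± 0.39, adjusted p = 0.000198). H2-K1, a class I histocompatibility gene, fell from 2200 to 2822 CPM to 1467 to 1855 CPM (-0.66 ± 0.13, adjusted p = 0.00222). Hspa1b, an inducible heat shock chaperone, had 85.6 to 2768 CPM in Yy1+/+ and 1.14 to 151 CPM in Yy1-/- (-4.81 ± 1.38, adjusted p = 0.0161), with reads shared with other genes in all libraries and a call lost without Yy1-/- replicates 3 and 4 (-4.06, adjusted p = 0.109). The groups of Adgrg1, Car2 and H2-K1 did not overlap, and those of Hspa1b did. Immediate early and dissociation genes also varied within Yy1+/+. Of 30 tested, 16 fell, 8 without Yy1-/- replicates 1 and 2 and 3 without replicates 3 and 4, and their summed level was 12470, 31010, 1387 and 9564 CPM in Yy1+/+ and 1505, 5326, 2188 and 1178 CPM in Yy1-/-. Their part in other results was not tested.

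Genes that define stem cells fell in all 4 Yy1-/- libraries. Of 38 tested genes for stem cell surface proteins and signalling, 25 fell and 3 rose (Cd48, Ifitm1 and Ifitm3), with a median log2 fold change of -2.1 against 0.01 over all genes. Pdzk1ip1, a membrane protein gene used to mark stem cells, fell from 73.5 to 116 CPM to at most 3.08 CPM (log2 fold change -5.54 ± 0.32, edgeR adjusted p = 5.63e-07). Plxdc2 (-2.84 ± 0.21, adjusted p = 2.61e-06) and the junction protein genes Jam3 (-5.46 ± 0.52, adjusted p = 7.95e-06) and Jam2 (-5.25 ± 0.53, adjusted p = 3.79e-06) fell too, Jam2 being listed with the integrins and adhesion receptors rather than with the stem cell genes. Jam3 went from 13 to 24.6 CPM to at most 0.857 CPM. Ly6e, the member with the highest level, had 864 to 1212 CPM against 1132 to 1755 CPM and did not pass the test.

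Transcription regulators of stem cells fell in 28 of 39 tested genes, with a median of -1.58, and the other 11 did not pass the test. Among the 28 was Egr1, with 724, 2169, 38.9 and 484 CPM in Yy1+/+ and 7.35, 185, 56.9 and 15.2 CPM in Yy1-/-. Its groups overlapped, and its Yy1+/+ libraries had the same order as the immediate early sums above. Mecom, which is required for stem cell maintenance, fell from 81.4, 66.4, 108 and 79.4 to 7.32, 6.64, 14.9 and 17.1 CPM (log2 fold change -2.87 ± 0.33, edgeR adjusted p = 5.31e-05). Its relative Prdm16 fell from 22.1 to 38.5 CPM to 6.25 to 8.15 CPM (-2.05 ± 0.21, adjusted p = 2.51e-05), Meis1, a partner of Hox proteins (-1.72 ± 0.16, adjusted p = 1.66e-05), and Lmo2, a bridging factor of blood cell complexes, from 697 to 950 CPM to 360 to 388 CPM (-1.13 ± 0.11, adjusted p = 2.48e-05). Gata2 fell from 262 to 369 CPM to 49.1 to 81.9 CPM (-2.13 ± 0.24, adjusted p = 4.19e-05). Zfpm1, the GATA cofactor FOG1, fell by 2.48 ± 0.3 (adjusted p = 8.16e-05) and Nfe2 (-1.13 ± 0.13, adjusted p = 6.67e-05). Among the regulators that did not pass were Runx1, Erg, Lyl1 and Hoxb4, named after their results were seen. Without Yy1-/- replicates 1 and 2, 27 surface genes and 25 regulators fell, and without replicates 3 and 4 it was 24 and 27.

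Hox and imprinted genes, whose expression is high in early cells, fell as well. Of 16 tested Hox genes 9 fell. Hoxa3 went from 3.16 to 6.92 CPM to 0.407 to 0.777 CPM (log2 fold change -3.1 ± 0.4, edgeR adjusted p = 0.000121), and Hoxb5, a marker of long-term stem cells, from 4.88 to 8.37 CPM to 0.797 to 1.67 CPM (-2.42 ± 0.35, adjusted p = 0.000248). Of 13 tested imprinted genes 10 fell, and the other 3 (Mest, Impact and Kcnq1ot1) did not pass the test. Phlda2, which restrains growth, had 9.2 to 12.7 CPM in Yy1+/+ and 0, 0, 0.741 and 0.239 CPM in Yy1-/- (-5.46 ± 0.55, adjusted p = 3.02e-06). Ndn, a p53-linked regulator of stem cell quiescence, fell from 20.4 to 31.1 CPM to 0.763 to 3.66 CPM (-3.75 ± 0.49, adjusted p = 0.000124), Dlk1, a Notch-like ligand, (-4.85 ± 0.8, adjusted p = 0.000123), and the abundant Gnas (-0.94 ± 0.14, adjusted p = 0.000322). Phlda2 and Dlk1 kept traces in Yy1-/- replicates 3 and 4 and were at 0 in replicates 1 and 2. Ndn kept reads in every Yy1-/- library, more in replicates 3 and 4. Peg13, an imprinted non-coding RNA outside this list, fell from 61.5 to 79.4 CPM to 6.23, 13, 9.09 and 15.5 CPM (-2.69 ± 0.3, adjusted p = 4.32e-05).

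Retinoic acid genes, which are tied to dormant stem cells, showed 4 falls and 1 rise among 12 tested. Aldh1a1, which makes retinoic acid, fell from 25.8 to 37.3 CPM to 0.763, 2.67, 8.75 and 2.96 CPM (log2 fold change -3.1 ± 0.47, edgeR adjusted p = 0.000365), and the receptor Rarb from 2.22 to 3.66 CPM to at most 0.292 CPM (-4.98 ± 0.68, adjusted p = 9.8e-05). This enzyme and this receptor were each below every wild-type library.

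Genes of lymphoid-primed progenitors were mixed, with 9 of 27 lower and 3 higher. Gimap6, a lymphocyte GTPase gene, fell from 246 to 518 CPM to 33.7 to 89.6 CPM (log2 fold change -2.61 ± 0.3, edgeR adjusted p = 5e-05). Cd52 rose from 26.7 to 52.5 CPM to 95.4 to 244 CPM (1.99 ± 0.29, adjusted p = 0.000241). Il7r, given above, rose too.

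Genes of a Polycomb complex were lower. Of 23 tested genes of Polycomb repressive complex 1 (PRC1), which ubiquitinates histone H2A, 12 fell and the other 11 did not pass the test, with a median log2 fold change of -0.58. Rnf2, its catalytic RING protein, fell from 112, 116, 101 and 114 to 36.3, 46.5, 35.4 and 40.6 CPM (-1.48 ± 0.15, edgeR adjusted p = 2.53e-05). Scmh1 fell from 55.4 to 61.0 CPM to 6.91 to 18.5 CPM (-2.06 ± 0.32, adjusted p = 0.000381), and the chromodomain readers Cbx6 (-1.8 ± 0.28, adjusted p = 0.000405) and Cbx7 (-1.37 ± 0.22, adjusted p = 0.000445) fell too. Ring1, Bmi1, Pcgf2, Cbx2, Phc1, Kdm2b and L3mbtl2 were also among the 12. The falls reached both RING proteins and 2 of the Pcgf subunits.

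In Polycomb repressive complex 2, which methylates histone H3, 3 of 12 tested genes fell and 1 rose, so no common direction was seen. Ezh2, the enzyme of dividing cells, rose from 87.2 to 129 CPM to 154 to 173 CPM (log2 fold change 0.59 ± 0.13, edgeR adjusted p = 0.00463), while Ezh1, its relative in resting cells, fell from 80.7 to 90.0 CPM to 48.8 to 76.9 CPM (-0.54 ± 0.15, adjusted p = 0.0132). The accessory subunits Phf1 (-1.13 ± 0.24, adjusted p = 0.00305) and Phf19 (-1.57 ± 0.41, adjusted p = 0.00936) fell. The call of Ezh2 was lost with log2 TPM (0.3, adjusted p = 0.215), that of Ezh1 without Yy1-/- replicates 3 and 4 (adjusted p = 0.107), and that of Phf19 without Yy1-/- replicates 1 and 2 (adjusted p = 0.0642).

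Of 14 tested INO80 genes 5 rose and 1 fell. Ino80b rose from 26.8 to 32.1 CPM to 48.0 to 58.2 CPM (log2 fold change 0.81 ± 0.15, edgeR adjusted p = 0.00115) and Uchl5, a deubiquitinase of the complex, from 114 to 177 CPM to 184 to 232 CPM (0.64 ± 0.16, adjusted p = 0.00647). Actr5, an actin-related subunit, fell from 46.7 to 86.9 CPM to 18.9 to 38.7 CPM (-1.07 ± 0.25, adjusted p = 0.00508). The count of rises was 3 without Yy1-/- replicates 1 and 2 and also without replicates 3 and 4. Of 18 cohesin genes, which hold sister chromatids together and shape loops, 4 rose and 1 fell. These were 22.2% and 5.56%, against 16.3% and 18.8% of all tested genes. Smc3, the ring subunit whose gene is altered in the third genotype, had 163, 160, 214 and 172 CPM in Yy1+/+ and 200, 274, 306 and 243 CPM in Yy1-/-, with overlapping groups (0.53 ± 0.15, adjusted p = 0.0167). Its call was lost when Yy1+/+ replicate 1 (0.49, adjusted p = 0.0517) or Yy1-/- replicate 3 (0.4, adjusted p = 0.0734) was left out, and with log2 TPM (0.25, adjusted p = 0.36). Sgo1, which protects cohesion at centromeres, rose by 1.52 ± 0.15 (adjusted p = 2.44e-05), Cdca5, its stabiliser sororin, by 0.87 ± 0.15 (adjusted p = 0.000755), and Rad21, a ring subunit, from 59.6 to 85.2 CPM to 102 to 126 CPM (0.7 ± 0.15, adjusted p = 0.0028), a call lost with log2 TPM (0.43, adjusted p = 0.116). Esco1, an acetyltransferase of the ring, fell from 52.3 to 60.8 CPM to 37.4 to 39.7 CPM (-0.58 ± 0.14, adjusted p = 0.00621).

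Single chromatin enzymes changed by more than their lists. Kdm5b, a demethylase of histone H3 lysine 4, fell from 149, 73.8, 144 and 133 to 5.67, 9.84, 15.1 and 22.3 CPM (log2 fold change -3.24 ± 0.39, edgeR adjusted p = 7.31e-05), while 4 of 18 demethylase genes fell in all, 2 without Yy1-/- replicates 3 and 4. Dpf2, a subunit of the SWI/SNF remodeller, fell from 198 to 260 CPM to 83.3 to 116 CPM (-1.13 ± 0.14, adjusted p = 0.000114), while 7 of 28 remodeller genes fell and 2 rose. Tet1, an enzyme of DNA demethylation, fell from 18.9 to 38.2 CPM to 3.64 to 16.7 CPM (-1.52 ± 0.42, adjusted p = 0.0135), a call lost without Yy1-/- replicates 1 and 2 (adjusted p = 0.0977).

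Of 46 tested genes for cytokine and growth factor receptors 11 fell and 10 rose, or 23.9% and 21.7%, against 18.8% and 16.3% of all tested genes. Csf2rb, the common chain of the IL-3, IL-5 and GM-CSF receptors, rose from 49.2 to 69.4 CPM to 183, 216, 121 and 174 CPM (log2 fold change 1.56 ± 0.2, edgeR adjusted p = 0.000109), with reads shared with its close copy in most libraries. Il2ra, the IL-2 receptor chain of activated lymphocytes, rose from at most 0.338 CPM to 5.72, 3.23, 3.52 and 10.4 CPM (5.77 ± 0.77, adjusted p = 4.49e-05). Below the receptors, 9 of 29 JAK-STAT genes fell and 2 rose. Jak1 fell from 438 to 483 CPM to 231 to 302 CPM (-0.79 ± 0.14, adjusted p = 0.00106), Stat4 from 116 to 136 CPM to 43.8 to 74.3 CPM (-1.14 ± 0.19, adjusted p = 0.000695), and the feedback inhibitors Socs2 (-1.46 ± 0.26, adjusted p = 0.000972) and Socs5 (-1.42 ± 0.21, adjusted p = 0.000339) fell. Jak2, Stat5a, Stat5b and Cish were also among the 9.

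In the Ras and AKT pathways 10 of 48 tested genes fell and 4 rose, close to the background for falls. The kinase Mapk3 fell (log2 fold change -0.91 ± 0.19, edgeR adjusted p = 0.0031), with no overlap. Rasgrp1, a Ras activator of lymphocytes, rose from at most 1.75 CPM to 11.6, 7.37, 3.12 and 7.33 CPM (3.56 ± 0.74, adjusted p = 0.00269).

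Falls were found in 3 developmental pathways, beside a background of 18.8% over all genes. Those of the Notch list depended most on which Yy1-/- libraries were used. Of 26 tested Wnt genes 10 fell, with a median log2 fold change of -0.88. The receptor Fzd8 fell from 9.07, 31.2, 9.33 and 11.3 to 0.33, 0.777, 0.629 and 1.07 CPM (-4.43 ± 0.54, edgeR adjusted p = 8.27e-05), the repressor Tcf7l1 from 4.53 to 7.12 CPM to 0.28 to 1.29 CPM (-2.73 ± 0.35, adjusted p = 0.000123), and Csnk1a1, a kinase that marks beta-catenin for degradation, from 312 to 418 CPM to 132 to 202 CPM (-1.08 ± 0.17, adjusted p = 0.000388). Ctnnb1, beta-catenin itself, had 244 to 419 CPM and 267 to 360 CPM (-0.21 ± 0.16, adjusted p = 0.311). The 10 falls included 4 Frizzled receptors (Fzd3, Fzd4, Fzd7 and Fzd8).

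Of 30 tested genes of TGF-beta and BMP signalling 11 fell and 1, Id2, rose. Ltbp3, which stores the latent ligand, fell from 60.4 to 95.2 CPM to 13.4 to 24.4 CPM (log2 fold change -2.17 ± 0.26, edgeR adjusted p = 7.44e-05), the receptor Acvr2b from 11.2 to 12.9 CPM to 0.432 to 2.33 CPM (-2.83 ± 0.35, adjusted p = 1e-04), Eng, the co-receptor endoglin, from 141, 76.9, 128 and 130 to 13.5, 30.1, 13.6 and 27.4 CPM (-2.49 ± 0.33, adjusted p = 0.000147), and the repressor Tgif2 (-2.04 ± 0.28, adjusted p = 0.000183). Of 30 Notch genes 11 fell and 2 rose. Dll4, a Notch ligand, had 1.04 to 1.98 CPM in Yy1+/+ and 0 counts in Yy1-/-, at least 84.3-fold lower. Dtx3 fell from 150, 110, 108 and 144 to 1.14, 6.58, 5.21 and 18.4 CPM (-4.03 ± 0.52, adjusted p = 0.000114), and Mfng, which glycosylates Notch, from 184 to 294 CPM to 96.5 to 143 CPM (-0.94 ± 0.18, adjusted p = 0.0019). The 4 Notch receptors did not pass the test. The falls of the Notch list numbered 5 without Yy1-/- replicates 1 and 2 and 6 without replicates 3 and 4. In the same 2 fits the Wnt list had 9 and 7 falls, and the TGF-beta and BMP list 10 and 10.

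**Figure D3:**
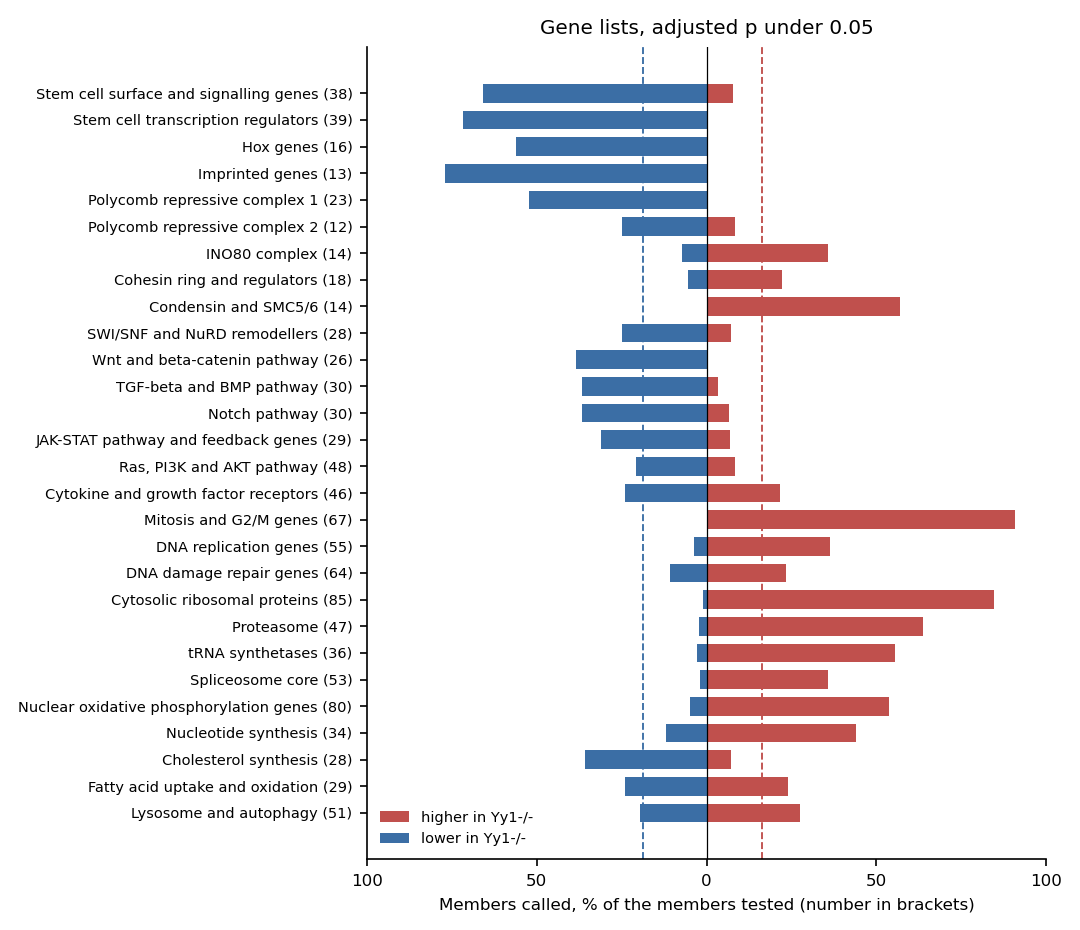
Share of tested members called higher (red, to the right) and lower (blue, to the left) in Yy1-/- for 28 gene lists, with the number tested in brackets; dashed lines mark the shares over all genes, 16.3% higher and 18.8% lower. Stem cell, Hox, imprinted and PRC1 lists lie to the left, and mitosis, ribosomal, proteasome and respiration lists to the right.

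Genes of mitosis were higher. Of 67 tested mitotic and G2/M genes 61 rose (median 0.99 on the log2 scale), and the other 6 did not pass the test. Their summed level was 4380, 4894, 7169 and 5466 CPM in Yy1+/+ and 9723, 10469, 11680 and 11078 CPM in Yy1-/-, with no overlap and little spread among the Yy1-/- libraries. Cdc25c, the phosphatase that triggers mitosis, rose from 13 to 21.6 CPM to 44.4 to 61.1 CPM (1.64 ± 0.17, edgeR adjusted p = 3.04e-05). The list kept 54 rises without Yy1-/- replicates 1 and 2 and 44 without replicates 3 and 4. Of 55 tested DNA replication genes 20 rose and 2 fell, while 9 rose and 7 fell without Yy1-/- replicates 3 and 4.

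Among 8 tested genes for CDK inhibitors 3 rose and 1 fell. Cdkn1c (p57), the inhibitor most tied to stem cell quiescence, fell from 23.6, 33.3, 18.6 and 19.8 to 3.56, 3.81, 6.53 and 5.78 CPM (log2 fold change -2.28 ± 0.32, edgeR adjusted p = 0.000196). Cdkn2c (p18) rose from 23.0 to 39.2 CPM to 58.2 to 85.2 CPM (1.14 ± 0.19, adjusted p = 0.000679) and Cdkn3, a phosphatase that acts on CDKs, from 5.17 to 7.3 CPM to 18.6 to 24.1 CPM (1.69 ± 0.19, adjusted p = 4.32e-05). Cdkn2a, the gene of p16 and p19ARF, had 0 counts in Yy1+/+ and 0.636, 0.518, 0.337 and 0.358 CPM in all 4 Yy1-/- libraries, at least 31.8-fold higher, from 81 counts in all. Cdkn1a (p21) had 19.2, 146, 8.08 and 13.6 CPM in Yy1+/+ and 176, 152, 63.6 and 70.9 CPM in Yy1-/- and did not pass the test (1.3 ± 0.72, adjusted p = 0.177). The high value of Yy1+/+ replicate 2 kept its groups overlapping, and without that library Cdkn1a rose (3.08, adjusted p = 0.000331).

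Genes that drive the G1 phase did not share a direction, with 7 of 35 lower and 4 higher. Mycn fell from 170, 146, 200 and 157 to 8.9, 16.7, 36.5 and 27.9 CPM (log2 fold change -2.9 ± 0.34, edgeR adjusted p = 6.67e-05) and Myc, its relative, from 593 to 765 CPM to 277, 332, 360 and 502 CPM (-0.89 ± 0.17, adjusted p = 0.00159). E2f6, a repressor of E2F targets, fell from 94.1 to 110 CPM to 42.1 to 49.0 CPM (-1.17 ± 0.12, adjusted p = 3.18e-05). Of 64 genes of DNA repair 15 rose and 7 fell, or 23.4% and 10.9%, and 7 rose without Yy1-/- replicates 3 and 4. Rad51c rose from 2.07 to 3.81 CPM to 9.09 to 15.1 CPM (2.04 ± 0.26, adjusted p = 0.000104), Brca2 by 1.2 ± 0.2 (adjusted p = 0.000765), and Tipin, which steadies replication forks, from 107 to 153 CPM to 197 to 338 CPM (1.04 ± 0.17, adjusted p = 0.000517).

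Genes for ribosomal proteins and tRNA synthetases were higher in the TMM-scaled counts, while far fewer of them rose as log2 TPM. Of 85 tested genes for cytosolic ribosomal proteins 72 rose (median 0.72 on the log2 scale) and 1, Rpl7l1, fell. Their summed level was 29466 to 35463 CPM in Yy1+/+ and 61914, 39058, 57213 and 46776 CPM in Yy1-/-. Of 36 tRNA synthetase genes 20 rose and 1 fell. Gars, the glycine enzyme, rose from 200 to 249 CPM to 294 to 396 CPM (0.64 ± 0.12, edgeR adjusted p = 0.00134), while Wars2, the mitochondrial tryptophan enzyme, fell from 9.24 to 14.7 CPM to 3.15 to 6.18 CPM (-1.43 ± 0.28, adjusted p = 0.00186). Of the 20 rises 16 were in cytosolic enzymes or those shared with mitochondria. Npm1, a nucleolar chaperone of ribosome assembly, rose from 532 to 606 CPM to 1249, 757, 1203 and 1001 CPM (0.91 ± 0.15, adjusted p = 0.000543), with shared reads. Without Yy1-/- replicates 3 and 4 the rises numbered 50 among cytosolic ribosomal protein genes and 12 among tRNA synthetase genes.

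Of 55 tested genes for RNA polymerase II and Mediator 9 rose and 8 fell, or 16.4% and 14.5%, near the 16.3% and 18.8% of all tested genes. In the spliceosome 19 of 53 tested genes rose and 1 fell, and 10 of the 19 were genes of Sm proteins and other small ribonucleoprotein subunits whose symbols begin with Snrp. Snrpd3 rose from 122 to 175 CPM to 226 to 342 CPM (log2 fold change 1.09 ± 0.15, edgeR adjusted p = 0.000198). Spliceosome genes had 9 rises without Yy1-/- replicates 3 and 4. Of 39 genes of the nuclear pore and transport 11 rose and 1 fell, with 5 rises without Yy1-/- replicates 3 and 4. Among the rises were the import receptor Kpna2, from 241 to 324 CPM to 598 to 807 CPM (1.43 ± 0.15, adjusted p = 3.16e-05), and Nup93, from 98.8 to 118 CPM to 203 to 223 CPM (0.95 ± 0.1, adjusted p = 3.42e-05). Eef2k, the kinase that brakes translation elongation, fell from 326, 227, 323 and 322 to 102, 161, 145 and 147 CPM (-1.11 ± 0.17, adjusted p = 0.000341). Measured as log2 TPM, 35 of the 85 ribosomal protein genes and 4 of the 36 tRNA synthetase genes rose, against 1464 of all 16649 genes.

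Metabolic genes split by pathway. Of 80 tested nuclear genes of oxidative phosphorylation 43 rose and 4 fell, and of 34 genes of nucleotide synthesis 15 rose and 4 fell, with 7 rises without Yy1-/- replicates 3 and 4. Nme2, a nucleoside diphosphate kinase, rose from 131 to 155 CPM to 298 to 517 CPM (log2 fold change 1.42 ± 0.16, edgeR adjusted p = 4.15e-05), with shared reads, while Ctps2, which makes CTP, fell from 125 to 180 CPM to 58.8 to 72.2 CPM (-1.08 ± 0.15, adjusted p = 0.000156). In the unfolded protein and integrated stress response 9 of 35 tested genes rose and 3 fell. Of its metabolic members, the folate enzyme Mthfd2 rose from 20.3 to 32.9 CPM to 161, 90.4, 84.8 and 89.2 CPM (1.94 ± 0.22, adjusted p = 4.32e-05) and Psat1, of serine synthesis, from 101 to 144 CPM to 202 to 331 CPM (1.07 ± 0.15, adjusted p = 0.000251).

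Single enzymes fell steeply inside pathways with no common direction. Ldhb, which favours the turnover of lactate to pyruvate, fell from 152, 300, 133 and 165 to 4.55, 2.23, 8.62 and 12.0 CPM (log2 fold change -4.78 ± 0.44, edgeR adjusted p = 1.29e-05), while in glycolysis and the pentose phosphate pathway 9 of 34 tested genes rose and 7 fell. Suclg2, the GTP-forming subunit of a TCA cycle enzyme, fell from 143 to 169 CPM to 7.78, 13.4, 24.0 and 37.7 CPM (-2.93 ± 0.5, adjusted p = 0.000766), while 7 of 24 TCA cycle genes rose and 4 fell. In the uptake and oxidation of fatty acids 7 of 29 fell and 7 rose, of which 1 rose without Yy1-/- replicates 1 and 2. Acadm went from 139 to 243 CPM to 34.5 to 64.2 CPM (-1.78 ± 0.21, adjusted p = 7.5e-05), Eci1 from 68.0 to 104 CPM to 8.31, 9.92, 21.6 and 25.9 CPM (-2.3 ± 0.42, adjusted p = 0.00118), and Hadha fell by 1.0 ± 0.2 (adjusted p = 0.00198). In Suclg2 and Eci1 the fall was larger in Yy1-/- replicates 1 and 2 than in 3 and 4.

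Cholesterol genes fell in 10 of 28 tested members and rose in 2. Srebf2, the regulator of the pathway, fell from 288, 128, 285 and 287 to 52.6, 115, 117 and 131 CPM (log2 fold change -1.25 ± 0.29, edgeR adjusted p = 0.0055). The call of Srebf2 held although Yy1+/+ replicate 2 lay within the range of the Yy1-/- libraries.

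Antioxidant genes were exchanged within their list, with 13 of 39 higher and 12 lower. Gsta4 fell from 15.3 to 23.0 CPM to at most 1.58 CPM (log2 fold change -4.19 ± 0.44, edgeR adjusted p = 3.28e-05), Gstm5 from 36.8 to 52.9 CPM to 6.74 to 13.4 CPM (-2.36 ± 0.27, adjusted p = 4.52e-05), and catalase, Cat, from 190 to 224 CPM to 111 to 143 CPM (-0.69 ± 0.11, adjusted p = 0.000598). Prdx1 rose from 389 to 556 CPM to 747 to 1303 CPM (1.02 ± 0.18, adjusted p = 0.00086) and Txn1, thioredoxin, from 188 to 239 CPM to 323 to 505 CPM (0.93 ± 0.14, adjusted p = 0.000401). The rises numbered 8 without Yy1-/- replicates 1 and 2. The 13 in the full set included Cybb, Cyba, Ncf1 and Ncf4 of the phagocyte NADPH oxidase.

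Of 21 tested genes of the Bcl2 family 8 rose, both protective and killing members, and 3 rose without Yy1-/- replicates 1 and 2. Bcl2 rose from 65.1 to 109 CPM to 135 to 204 CPM (log2 fold change 1.01 ± 0.21, edgeR adjusted p = 0.00261), a call lost with log2 TPM (0.78, adjusted p = 0.0518), and Pmaip1 (Noxa) from 1.83 to 34.7 CPM to 48.1 to 100 CPM (2.41 ± 0.6, adjusted p = 0.00758), a call lost without Yy1-/- replicates 1 and 2 (adjusted p = 0.0632). Mlkl, the pore-forming effector of necroptosis, rose from 41.0 to 55.8 CPM to 251, 159, 153 and 143 CPM (1.8 ± 0.19, adjusted p = 2.92e-05) and its activating kinase Ripk3 from 122 to 182 CPM to 208 to 231 CPM (0.61 ± 0.13, adjusted p = 0.00256). Of 27 tested genes for caspases and inflammatory cell death 6 rose and 2 fell, or 22.2% and 7.41%, against 16.3% and 18.8% of all tested genes. Without Yy1-/- replicates 1 and 2, 3 of the 27 rose. In Mlkl and Ripk3 all 4 Yy1-/- libraries lay above all 4 Yy1+/+ libraries.

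Differentiated myeloid genes rose, by sizes that differed between Yy1-/- libraries. Of 38 tested monocyte and macrophage genes 30 rose, the median being 3.09 on the log2 scale, but the summed level of the list was 1894, 1407, 816 and 1111 CPM in Yy1+/+ and 15948, 11153, 1219 and 1785 CPM in Yy1-/-, so replicates 3 and 4 lay within the range of the wild type. Without Yy1-/- replicates 1 and 2, 8 of the 38 rose and the median was 0.97. C1qb, a complement gene of tissue macrophages, had 2206, 1540, 9.34 and 74.0 CPM in Yy1-/- against 4.33 to 23.1 in Yy1+/+ (6.39 ± 1.51, edgeR adjusted p = 0.00564; 1.83 and adjusted p = 0.242 without replicates 1 and 2). Hmox1, haem oxygenase, had 221, 187, 6.11 and 17.1 CPM against 3.04 to 11.7 (3.79 ± 1.02, adjusted p = 0.0117) and Slc11a1, a metal transporter of phagosomes, had 159, 89.0, 2.45 and 19.5 CPM against 1.27 to 5.15 (4.41 ± 1.06, adjusted p = 0.00624), and both lost their calls without replicates 1 and 2 (adjusted p = 0.675 and 0.205). The same 2 libraries held the fewest Yy1 reads, so the level of macrophage genes and that of residual Yy1 cannot be told apart across these 4 libraries.

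A smaller set of myeloid genes rose in all 4 Yy1-/- libraries. Tyrobp, an adaptor of activating receptors, rose from 22.4 to 55.6 CPM to 542, 358, 131 and 114 CPM (log2 fold change 3.07 ± 0.46, edgeR adjusted p = 0.000333), Ccr1, a chemokine receptor, from at most 2.93 CPM to 125, 53.6, 33.4 and 47.1 CPM (5.65 ± 0.6, adjusted p = 3.42e-05), and Ccr2, which brings monocytes out of the marrow, from 8.05 to 23.0 CPM to 107, 66.3, 47.6 and 67.3 CPM (2.53 ± 0.47, adjusted p = 0.00128). Of 34 genes for phagocyte pattern and complement receptors 27 rose and 1, Cr1l, fell, and 10 and 2 did so without Yy1-/- replicates 1 and 2. Clec4d, a lectin receptor, rose from 3.02 to 5.12 CPM to 23.4, 14.6, 20.9 and 17.1 CPM (2.31 ± 0.24, adjusted p = 2.92e-05) and Myd88, the adaptor of Toll-like receptors, from 85.5 to 121 CPM to 284, 199, 194 and 192 CPM (1.15 ± 0.15, adjusted p = 0.000147). Ctss, a protease of antigen presentation, rose from 50.8 to 81.6 CPM to 1157, 629, 136 and 131 CPM (2.98 ± 0.59, adjusted p = 0.00194), and Ms4a6d and Pirb rose by 6.28 ± 1.1 and 3.86 ± 0.65 (adjusted p = 0.000926 and 0.000681). All 8 of these genes kept their calls without Yy1-/- replicates 1 and 2.

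Of 14 tested class II presentation genes 3 fell and 2 rose, or 21.4% and 14.3%, near the 18.8% and 16.3% of all tested genes. The summed level of the class II list was 2255, 1906, 1080 and 1980 CPM in Yy1+/+ and 5057, 2507, 947 and 1025 CPM in Yy1-/-, highest in Yy1-/- replicates 1 and 2. The median of the list was 0.3 on the log2 scale, 0.95 without Yy1-/- replicates 3 and 4 and -0.87 without replicates 1 and 2, where 5 fell and 1 rose. H2-Ob fell from 61.3 to 103 CPM to 10.2 to 27.7 CPM (log2 fold change -2.41 ± 0.28, edgeR adjusted p = 5.85e-05) and H2-DMa from 187 to 293 CPM to 98.3 to 135 CPM (-1.07 ± 0.16, adjusted p = 0.000303), each with no overlap and in all 4 libraries. In granulocytes, 9 of 15 early neutrophil granule genes and 13 of 26 late ones rose. Of the late genes 8 rose and 2 fell without Yy1-/- replicates 1 and 2. Ctsg, cathepsin G, rose from 246, 327, 91.6 and 116 to 1177, 745, 842 and 867 CPM (2.22 ± 0.45, adjusted p = 0.0024), while Mpo, the most abundant granule gene, had 4959, 7243, 2020 and 2443 CPM against 1083, 798, 2050 and 4013 CPM (-1.07 ± 0.85, adjusted p = 0.35). Padi4, which opens chromatin in neutrophils, was the 1 late gene that fell, from 94.0 to 109 CPM to 5.67, 26.6, 8.06 and 29.0 CPM (-2.56 ± 0.44, adjusted p = 0.000765). In the order of the replicates the late neutrophil sum was 7414, 10992, 955 and 1897 CPM in Yy1-/-, against 776 to 3486 CPM in Yy1+/+.

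**Figure D4:**
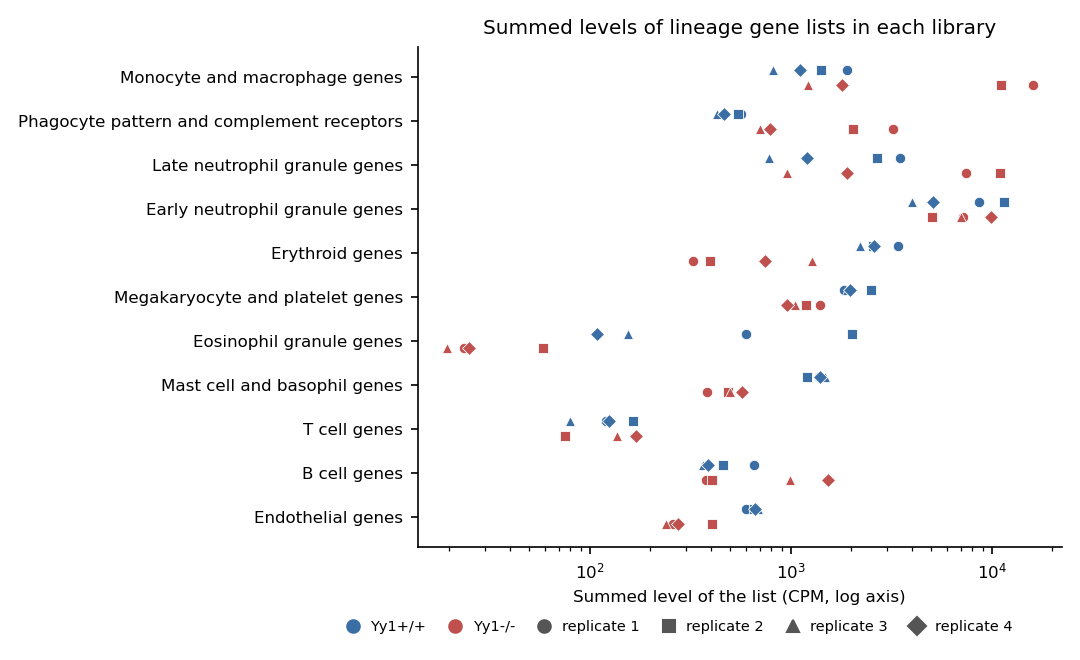
Summed CPM (log axis) of 11 lineage gene lists in the 4 Yy1+/+ (blue) and 4 Yy1-/- (red) libraries, with symbols for replicates. Macrophage and late neutrophil sums were highest in Yy1-/- replicates 1 and 2, erythroid sums were lowest there, and eosinophil, mast cell and endothelial sums were lower in all 4 Yy1-/- libraries. The mast cell and basophil sum holds Kit, and the 16 tested members of that list had no common direction.

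Erythroid and megakaryocyte genes were lower. Of 29 tested erythroid genes 9 fell, and the summed level went from 2197 to 3402 CPM to 324, 395, 1278 and 746 CPM, lowest in the 2 libraries with the fewest Yy1 reads. Car1, carbonic anhydrase 1, had 249 to 718 CPM in Yy1+/+ and 0, 0, 201 and 39.7 CPM in Yy1-/-. It did not pass the test with all libraries (log2 fold change -2.85 ± 1.66, edgeR adjusted p = 0.202). Gfi1b, a repressor of these lineages, fell from 87.1 to 129 CPM to 6.91, 19.2, 49.3 and 28.8 CPM (-2.06 ± 0.43, adjusted p = 0.00261). Aqp1, a water channel of red cells, fell from 17.4 to 136 CPM to 0, 1.12, 8.62 and 4.97 CPM (-4.31 ± 0.87, adjusted p = 0.00226). Without Yy1-/- replicates 3 and 4, 18 of the 29 erythroid genes fell, and without replicates 1 and 2, 5 fell and 3 rose.

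Of 28 tested megakaryocyte and platelet genes 16 fell and 1 rose. Trpc6, a calcium channel, fell from 31.9 to 40.5 CPM to 0, 1.2, 0.426 and 0 CPM (log2 fold change -6.33 ± 0.52, edgeR adjusted p = 5.45e-06) and Treml1, a receptor of platelet granules, from 2.66 to 3.51 CPM to at most 0.337 CPM (-4.42 ± 0.66, adjusted p = 5.38e-05). Both genes were at or near 0 in all 4 Yy1-/- libraries. Endothelial genes, several of which stem cells also express, fell in 8 and rose in 4 of 19 tested members, and 7 fell and 1 rose without Yy1-/- replicates 1 and 2. Robo4 fell from 30.0 to 50.8 CPM to 0.381 to 4.12 CPM (-3.97 ± 0.42, adjusted p = 3.28e-05), Emcn, endomucin, from 16.3 to 25.3 CPM to 2.16 to 4.37 CPM (-2.72 ± 0.33, adjusted p = 7.62e-05) and Esam from 65.6 to 101 CPM to 11 to 22.5 CPM (-2.34 ± 0.28, adjusted p = 7.5e-05). The 4 that rose were Cdh5, Stab1, Stab2 and Ednrb.

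T cell genes were low in both genotypes, with summed levels of 79.9 to 164 CPM in Yy1+/+ and 74.7 to 170 CPM in Yy1-/-. Of 23 tested T cell genes 11 rose, 7 without Yy1-/- replicates 3 and 4, while 1, Lat, an adaptor of receptor signalling, fell from 29.7 to 71.5 CPM to 11.2 to 20.4 CPM (log2 fold change -1.61 ± 0.26, edgeR adjusted p = 0.000507). Of 21 genes of NK and innate lymphoid cells 4 rose and 1 fell. That 1 was Rora, a nuclear receptor of innate lymphoid cells, which fell from 15.2 to 45.0 CPM to 5.97 to 11.9 CPM (-1.56 ± 0.34, adjusted p = 0.00359). Plasma cell genes were abundant in both genotypes: Igha, the constant region of IgA, had 6966, 9715, 8332 and 2809 CPM in Yy1+/+ and 6191, 17368, 7575 and 4177 CPM in Yy1-/- (0.34 ± 0.41, adjusted p = 0.547), although an LSK gate should hold no plasma cells. Sdc1, the plasma cell marker CD138, fell from 59.6 to 99.8 CPM to 15.3 to 41.8 CPM (-1.62 ± 0.28, adjusted p = 0.000765). Cma1, a mast cell chymase, rose from at most 0.406 CPM to 20.7, 3.37, 16.8 and 9.86 CPM (6.5 ± 0.78, adjusted p = 2.98e-05). The summed mast cell and basophil list went from 1197 to 1485 CPM to 382 to 568 CPM. This sum holds Kit, which alone fell from a mean of 769 to 176 CPM. Of the 16 tested members of the list 4 rose and 4 fell, with a median of 0.01 on the log2 scale.

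Single genes outside these lines changed by large amounts. Igf2bp3, an RNA-binding protein gene of fetal cells, rose from at most 0.584 CPM to 17.6, 12.4, 5.99 and 5.54 CPM (log2 fold change 5.07 ± 0.67, edgeR adjusted p = 0.000113), with reads shared with other genes in all libraries, and its relative Igf2bp2 fell from 6.57 to 9.71 CPM to 0.991 to 1.81 CPM (-2.63 ± 0.3, adjusted p = 4.96e-05). Of 13 mitochondrially encoded genes 2 rose, or 15.4%, near the 16.3% of all tested genes. One of them, mt-Nd1, a subunit of complex I, rose from 196 to 289 CPM to 407, 591, 618 and 534 CPM (1.14 ± 0.23, adjusted p = 0.00247). Among non-coding RNAs, Epb41l4aos rose from 4.76 to 6.24 CPM to 15 to 30.2 CPM (2.07 ± 0.23, adjusted p = 4.52e-05), D5Ertd605e by 1.59 ± 0.19 (adjusted p = 7.94e-05), and Snhg3, a host of small nucleolar RNAs, by 1.75 ± 0.23 (adjusted p = 0.000143). Gimap1os, antisense to a lymphocyte GTPase gene, fell from 12.2 to 12.7 CPM to 1.73 to 3.93 CPM (-2.07 ± 0.31, adjusted p = 0.000335) and Plxna4os1 (-2.62 ± 0.37, adjusted p = 0.000239). The libraries do not mark strand, so reads of an antisense RNA and of its partner gene cannot be told apart.

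**Figure D5:**
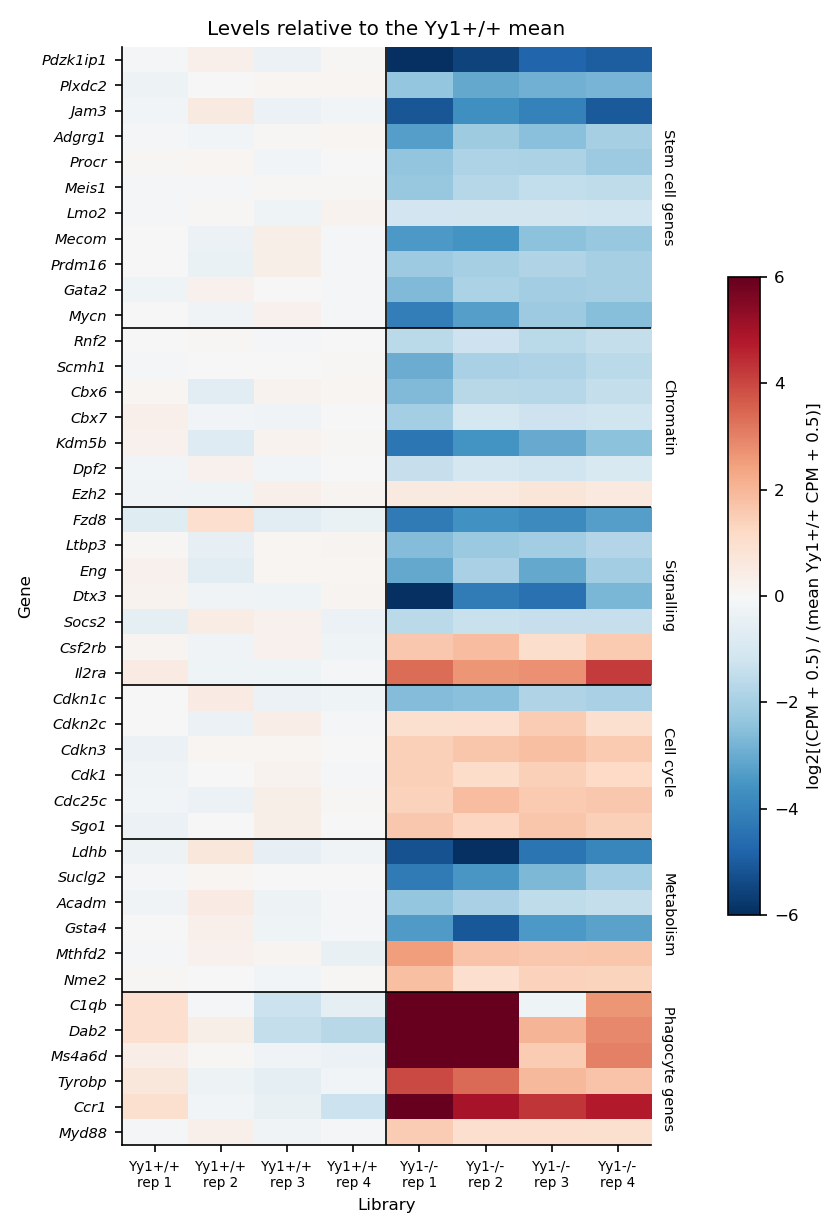
Level of 43 genes in each library relative to the Yy1+/+ mean, as log2[(CPM + 0.5) / (mean Yy1+/+ CPM + 0.5)], blue below and red above, with the colour scale ending at -6 and 6. The genes shown were picked from those called, so a steady direction follows in part from the choice and does not describe whole classes. Each stem cell, chromatin, signalling, cell cycle and metabolic gene shown kept one direction across the 4 Yy1-/- libraries. By contrast, C1qb, Dab2 and Ms4a6d were far higher in replicates 1 and 2 than in replicates 3 and 4.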

How the data were processed

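RNA of sorted LSK cells was sequenced in 12 libraries. Reads were aligned with STAR 2.5.2b and quantified with RSEM 1.3.0 on mm10, per the submitters' processing notes; the role of each tool is not given there. The authors deposited, per the file headers, an expected count, a TPM and an FPKM value for each gene; FPKM was not used here. RSEM divides reads that fit several genes, and some of the genes with fractional counts are named as uncertain. Others are not marked, such as Meis1 and Gnas, which had fractional counts in all 8 libraries.

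Expected counts were rounded. Genes passing edgeR's filterByExpr (minimum count 10, minimum total 15) were tested with edgeR 4.0.16 in R 4.3.3: TMM scaling, 1 term per genotype over all 12 libraries, quasi-likelihood test, Benjamini-Hochberg adjusted p under 0.05 over all 16649 genes. The SE is the log2 fold change divided by the root of F. Summed expected counts of the 8 libraries were 40937638 to 69086104. Genes with 0 counts in a genotype were compared with a floor of 3 counts over the group, and intervals and floors cover counting error only. The script was tested on simulated data. DESeq2 1.42.0, limma 3.58.1 on log2(TPM + 0.5), other scalings and filters, and fits without single libraries were alternatives.

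Gene names and positions are those of GENCODE M21 on GRCm38. Named genes are Yy1 and the sort genes, the 10 largest rises and falls with at least 5 CPM in the higher genotype, no overlap and an adjusted p under 0.05, the 8 largest changes in mean CPM each way, up to 5 genes each way with 0 counts in 1 genotype, up to 4 members with the smallest p and the 2 of highest level in each of 75 lists, and 4 non-coding RNAs each way; a subset is described. The members and lists were chosen with earlier results of these data known. Some genes that this rule selects are not reported here.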

Additional observations from a re-analysis of the deposited data

Results flagged for a closer look

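In 28 of 368 groups of 4 values, from 184 genes in each genotype, 1 library stood apart from the other 3 by Dixon's 95% limit on the gap to the nearest value. Chance puts about 1 in 20 groups past this limit where values are normally distributed. A group with 3 libraries at 0 and 1 above 0 always passes it, however small the value. The entries marked all 0 below are of this kind, so this rate does not apply to them. Of the 28, 11 were in Yy1+/+ replicate 2, and no explanation was tested. Levels are in CPM, each with the range of the other 3 libraries. The level in Yy1+/+ replicate 2 was Yy1 41.3 (33.9 to 34.2), Jam3 24.6 (13 to 14.9), Hoxb5 8.37 (4.88 to 5.19), Cbx6 82.3 (136 to 146) and Fzd8 31.2 (9.07 to 11.3). In the same library it was Csnk1a1 418 (312 to 320), Cdkn1a 146 (8.08 to 19.2), Snrpd3 175 (122 to 126), Eef2k 227 (322 to 326) and Srebf2 128 (285 to 288). In the same library it was Ctps2 180 (125 to 129). The level in Yy1-/- replicate 3 was Cd34 1158 (942 to 961), Ccdc60 0.0898 (all 0), Cdkn2c 85.2 (58.2 to 59.5) and D5Ertd605e 42.2 (24.9 to 26.8). The level in Yy1+/+ replicate 1 was Itgam 59.8 (34.0 to 38.1), Stfa1 0.695 (0 to 0.108), Stfa2l1 0.0751 (all 0) and Ednrb 0.0188 (all 0). The level in Yy1-/- replicate 2 was Mmp12 14.3 (0 to 1.3), Hspa1b 151 (1.14 to 15.2), Mapk3 43.9 (26.1 to 26.5) and Mb21d2 0.379 (0 to 0.0254). The level in Yy1-/- replicate 1 was Socs2 12.5 (14.7 to 15), Mlkl 251 (143 to 159), Mthfd2 161 (84.8 to 90.4) and Myd88 284 (192 to 199). The level in Yy1-/- replicate 4 was Fam184a 0.621 (0 to 0.0449).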

How the results depend on the processing

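No paired analysis was possible because the labels give no replicate numbers: replicates were numbered in accession order, which pairs nothing. Of all genes 5854 were called, and leaving out each of the 8 libraries in turn gave 4910 to 6027 calls. RLE factors, upper-quartile factors and DESeq2 gave 5824, 5817 and 5936 calls, and the older quasi-likelihood method of edgeR, an alternative chosen after seeing the data, gave 5015. A fit of only the 2 genotypes, without the third, tested 15793 genes and called 5050. Without Yy1-/- replicates 1 and 2, also chosen after seeing the data, 1731 genes rose, with 8 monocyte and macrophage genes and 10 phagocyte receptor genes among them. Without these and Yy1+/+ replicate 2 the 2 lists had 7 and 9 rises. With log2 TPM and limma 1464 genes rose and 4307 fell, so that 25.4% of the calls were rises against 46.5%, and the rises numbered 35 for cytosolic ribosomal proteins, 27 for oxidative phosphorylation and 18 for monocyte and macrophage genes. The uncalled Cd34 changed sign without Yy1-/- replicate 3 (-0.06), without Yy1-/- replicates 3 and 4 (-0.06) and with log2 TPM (-0.23), and the uncalled Igha without Yy1-/- replicate 2 (-0.22), without replicates 1 and 2 (-0.27) and without these and Yy1+/+ replicate 2 (-0.07). Leaving out each library in turn gave -0.06 to 0.08 for Cd34 and -0.22 to 0.55 for Igha. The cause was not tested. Of 184 genes examined, 169 kept their direction and side of the threshold without Yy1-/- replicates 1 and 2, and 179 without replicates 3 and 4. Many of the 184 were chosen for small p or large changes in these same libraries, so these counts do not describe all genes. Of all 2722 rises, 58.9% stayed called without Yy1-/- replicates 1 and 2, and 69.4% without replicates 3 and 4. Of all 3132 falls, 67.0% and 75.2% stayed called. Genes with few counts, such as Cdkn2a, have precision limited by depth.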
